A study of Homo sapiens with 4 samples.

Results

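The HOX cluster genes were taken as the symbols that begin with HOX, a cluster letter from A to D and a number, with nothing after it. Both expression tables held 39 such genes of 26506 in all. HOXA had 11 of them, HOXB 10, HOXC 9 and HOXD 9, and no other rule or measured value was used to choose them. RNA-seq was available for 4 libraries, 1 for each condition of the ovarian cancer lines HeyC2 and SKOV3. In each line, cells lipofected with 3 μg of the pCMV6/TET1 plasmid, which drives TET1 from a viral promoter, were set against cells given the empty plasmid, and both kinds were kept under Geneticin. TET1 is a dioxygenase that oxidises 5-methylcytosine at CpG dinucleotides. With 1 library per condition no test between conditions was possible, and the differences below have no replicate check.

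HOX genes encode homeodomain transcription factors that give cells their position along the head-to-tail axis, and their order along each cluster follows the order of their domains in the embryo. Genes of low paralog number act anteriorly and those of high number posteriorly, and the members of 1 paralog group are more alike in sequence than neighbours in a cluster. In the female tract HOXA9, HOXA10, HOXA11 and HOXA13 mark successive segments from oviduct to vagina. HOX clusters are classic targets of Polycomb and Trithorax complexes and of retinoic acid.

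Levels were read as FPKM, fragments per kilobase of transcript scaled to the mapped total, which allows genes to be compared per length. The TET1 columns had been multiplied by the study so that GAPDH, a glycolytic enzyme, equalled the control, by 3.23 in HeyC2 and 1.35 in SKOV3, and this was undone first. TET1 itself was 0.20 FPKM in the HeyC2 control and 0.52 in HeyC2 TET1, and 0.43 and 1.80 in the SKOV3 pair. The epithelial keratin KRT8 was between 386.3 and 774.6 FPKM and the Müllerian factor PAX8 between 74.6 and 194.7, while WT1 and MUC16, both common in serous ovarian tumours, stayed under 1, and the 3 leukocyte markers summed to at most 0.61. SOX17, another Müllerian factor, was at 7.01 and 2.64 FPKM in HeyC2 and 79.4 and 42.2 in SKOV3, and so lower with TET1 in both lines, with log2 changes of -1.20 and -1.09, whereas PAX8 was at 0.54 and 0.61 on that scale, taken relative to all genes. The epithelial adhesion gene EPCAM was at 0.09 and 0.38 FPKM in HeyC2 and 15.4 and 16.1 in SKOV3. The SKOV3 pair also differed in the keratin KRT19, from 255.1 FPKM to 0.46, and in the collagen COL1A1, from 0.32 to 27.7, and the HeyC2 pair in the endothelial cadherin CDH5, from 18.9 to 94.6. The other endothelial markers PECAM1 and VWF stayed at or below 0.42 FPKM. The part of these shifts in the HOX values was not tested.

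HOX expression in both lines was mainly HOXB expression. HOXB made up 83.1% and 83.6% of the summed HOX FPKM in HeyC2 without and with TET1, and 91.2% and 89.5% in SKOV3. Its sums were 316.5, 326.1, 412.8 and 519.9 FPKM in that order. HOXA summed to 27.9, 30.4, 15.03 and 17.6, HOXD to 27.9, 27.3, 20.9 and 28.6, and HOXC to 8.60, 6.18, 3.7 and 15.1. The HOXC sum was the lowest of the clusters in each of the 4 libraries. All 39 genes together took between 0.0771% and 0.128% of the FPKM of a library.

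At a minimum of 1 FPKM, 22 of the 39 genes were expressed in control HeyC2 cells and 23 with TET1, and in SKOV3 cells 21 and 22, which is 53.8% to 59.0%. The same minimum held for 43.96% to 50.4% of all genes and for 39 to 55 of 142 other homeobox genes, or 27.5% to 38.7%. These 142 were listed by name stems and single names and are not the whole class. Of the 39, 15 reached 1 FPKM in all 4 libraries. These were HOXB2 through HOXB9, HOXA3, HOXA5, HOXA10, HOXD3, HOXD4, HOXD8 and HOXD9. HOXB1, HOXC11, HOXC12 and HOXD12 were listed at 0 in all 4, and a further 5, HOXA4, HOXA9, HOXA11, HOXD10 and HOXD11, stayed under 1 FPKM throughout. HOXA9 and HOXA11 are 2 of the 4 Müllerian genes. HOXA10, the uterine member, was at 9.35, 8.64, 2.83 and 3.63 FPKM.

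**Figure D1:**
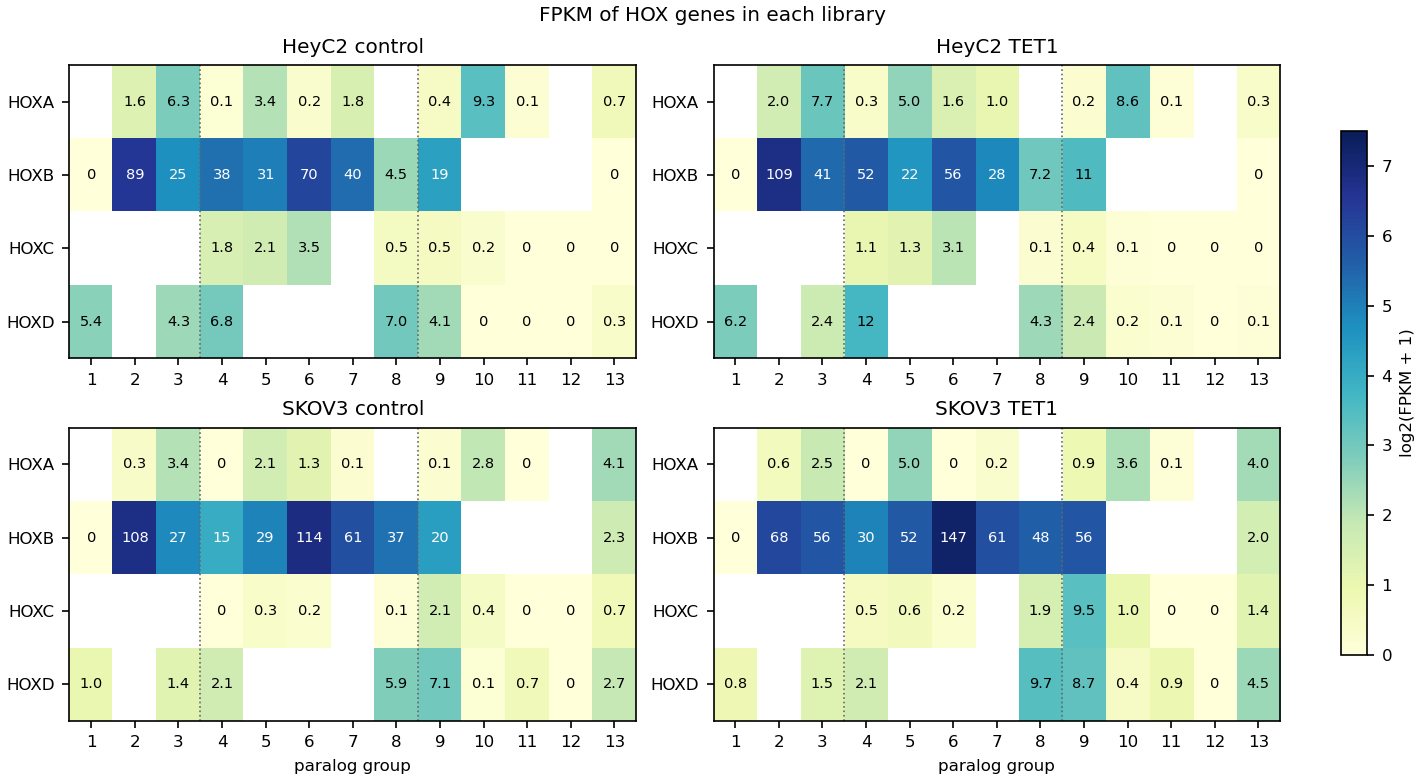
FPKM of HOX genes in the 4 libraries, with clusters as rows and paralog groups 1 to 13 as columns. Colour gives log2(FPKM + 1), each cell prints the FPKM, blank cells have no value shown, and dotted lines part anterior, central and posterior groups. The HOXB row is the darkest in each library, and the column of group 13 holds values over 1 only in the SKOV3 libraries.

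The highest members were HOXB2 and HOXB6, and their order differed between the controls. HOXB2, a hindbrain gene, was at 88.8 and 108.9 FPKM in the HeyC2 pair, control first, and at 108.0 and 68.1 in the SKOV3 pair. HOXB6, a trunk gene, was at 70.2, 55.8, 113.6 and 147.2 FPKM. More than 94% of all genes had lower values than either of them in every library. The next levels in the HeyC2 control were HOXB7 at 39.96, HOXB4 at 38.1, HOXB5 at 31.2 and HOXB3 at 25.0 FPKM, and in the SKOV3 control HOXB7 at 60.7, HOXB8 at 36.9, HOXB5 at 29.5 and HOXB3 at 27.5.

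The controls were compared with each other to see which HOX genes set the lines apart. Differences are log2 ratios of FPKM + 1, taken relative to the median of all genes whose FPKM averaged 1 or more, and a gene is called higher or lower when it lies at least 1.5-fold from that median. The tables of the lines were made separately. On this scale 23 members passed the filter, here called tested, of which 5 were higher in SKOV3, 10 were lower and 8 were neither. Over all genes 28.6% were higher and 29% lower, so the lower share of the members, 43.5%, was above the background and the higher share, 21.7%, was below it. The median member lay at -0.35. Of the 23, 7 were under 1 FPKM in 1 control and passed through the other, so that they had to differ, HOXA13, HOXB13, HOXC5, HOXC6, HOXC9 and HOXD13 among them. Taken without centring, the higher members numbered 8 and the median was -0.082, and the shares over all genes were not computed there.

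Of the 5 genes called higher in SKOV3, the posterior HOXA13, HOXB13, HOXC9 and HOXD13 passed the filter through SKOV3 alone. The posterior genes at 1 FPKM or more in both controls, HOXA10, HOXB9 and HOXD9, had differences of -1.70, -0.21 and 0.40. HOXA13 was at 0.69 FPKM in the HeyC2 control and 4.09 in the SKOV3 control, a log2 difference of 1.32, and HOXD13, the digit gene, was at 0.31 and 2.68, a difference of 1.22. HOXB13 was listed at 0 in both HeyC2 libraries and at 2.26 and 1.99 FPKM in the SKOV3 pair. HOXC13 was also listed at 0 in HeyC2 and stood at 0.70 and 1.35 in SKOV3, which completes paralog group 13. HOXC9 was at 0.49 and 2.06 FPKM in the controls. HOXB8, a central gene, was at 4.49 FPKM in the HeyC2 control and 36.9 in the SKOV3 control, a log2 difference of 2.52.

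The genes lower in SKOV3 were anterior and central, except HOXA10. HOXD1 was at 5.39 FPKM in the HeyC2 control and 1.02 in the SKOV3 control. HOXB4, known for the growth of blood stem cells, was at 38.1 and 14.9 FPKM, a log2 difference of -1.57. HOXD4 was at 6.81 and 2.13, HOXD3 at 4.32 and 1.39, and HOXA10 at 9.35 and 2.83. HOXA3 was at 6.27 and 3.38, and HOXA5 at 3.36 and 2.09. In HOXC, HOXC5 and HOXC6 were at 2.15 and 3.48 FPKM in the HeyC2 control and at 0.29 and 0.19 in the SKOV3 control, and HOXC4 was at 1.80 against a listed 0. By class, posterior members at 1 FPKM or more numbered 3 of 16 in each HeyC2 library and, in SKOV3, 7 without and 9 with TET1. Anterior members numbered 7 of 8 in each HeyC2 library and 5 and 4 in the SKOV3 pair.

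**Figure D2:**
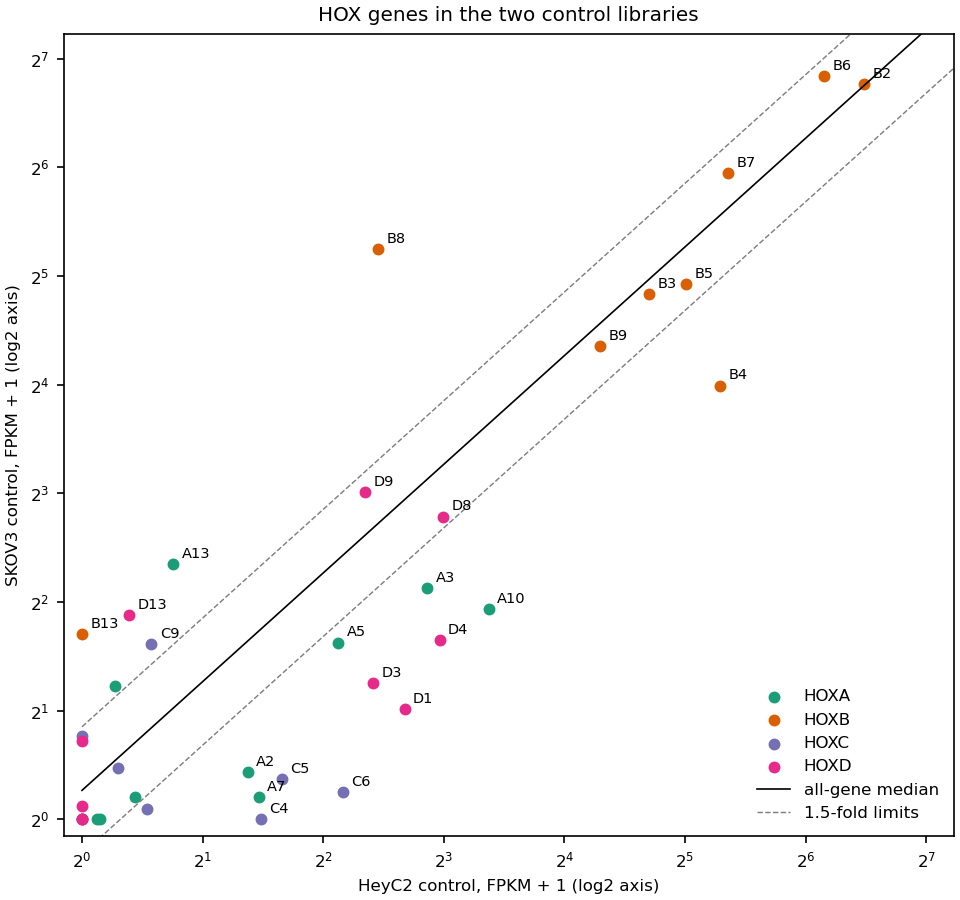
Points are HOX genes, placed by FPKM + 1 in the HeyC2 control (horizontal, log2 axis) and the SKOV3 control (vertical, log2 axis) and coloured by cluster. The solid line is the all-gene median and the dashed lines are the 1.5-fold limits. HOXB8, HOXA13, HOXB13 and HOXD13 lie above the upper limit, and HOXC4 to HOXC6, HOXD1 and HOXB4 lie below the lower one.

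HeyC2 TET1 was then compared with its control on the same scale. Of 22 members tested, 2 were higher, 4 were lower and 16 were neither, with a median of -0.19. Among all 11896 genes tested 12.5% were higher and 9.19% lower, against 9.09% and 18.2% of the members. The count of lower members was 8 with a pseudocount of 0.1 and 2 among the 13 members that averaged 5 FPKM or more, where the median member lay at 0.13. The shares over all genes were not computed at these settings.

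HOXB3 was at 25.0 FPKM in the HeyC2 control and 41.0 in HeyC2 TET1, a log2 change of 0.63 relative to all genes. Its plain ratio relative to the median was 1.57, with a 95% exact (Clopper-Pearson) interval of 1.40 to 1.74. Such intervals use fragment numbers estimated from FPKM, transcript length and depth, and cover counting error only. HOXB9, a posterior gene of the thorax, was at 18.7 FPKM and then 10.7, a log2 change of -0.81 and a ratio of 0.546 (interval 0.451 to 0.657). The genes between them formed no single direction. HOXB4 had a log2 change of 0.39 and HOXB8 of 0.52, whereas HOXB5 had -0.51, HOXB6 -0.38 and HOXB7 -0.57. On this scale of FPKM + 1 all were within the 1.5-fold limit. As plain ratios HOXB8, at 1.54 (interval 1.11 to 2.11), and HOXB7, at 0.661 (interval 0.551 to 0.776), lay just beyond it. Over the 8 HOXB genes tested, Spearman's rho of change against paralog number was -0.52 in HeyC2, and over 9 in SKOV3 it was 0.00. Over the 6 HOXA genes tested in HeyC2 it was -0.086. The HOXB genes share a cluster and a library pair, and HOXB3, HOXB4 and HOXB6 have overlapping exons on 1 strand.

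HOXD carried the other calls in HeyC2. HOXD4 was at 6.81 FPKM in the control and 11.7 with TET1, a log2 change of 0.64. HOXD3 was at 4.32 and 2.35, a change of -0.73. Its annotated span takes in HOXD4 on the same strand, though no exon overlap between them was found for the canonical transcripts. HOXD8 was at 6.96 and 4.34, and HOXD9 at 4.09 and 2.41, with changes of -0.63 and -0.64. Without centring both were at -0.58, just inside the limit, and the call of HOXD3 was kept. HOXD4 therefore moved against HOXD3, HOXD8 and HOXD9, while HOXD1 was at 5.39 and 6.21. The intervals of these ratios were 1.12 to 2.37 for HOXD4, 0.335 to 0.777 for HOXD3, 0.440 to 0.803 for HOXD8 and 0.342 to 0.906 for HOXD9, each apart from 1. HOXA gave no call among 6 members tested, and HOXC none among 3.

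The promoter windows of HOXD3, HOXD4 and HOXD8 differed in CpG, the dinucleotide that TET1 acts on. HOXD9 had no window in the table. RefSeq promoter windows on GRCh38.p14 were matched for 20 of the 39 genes. None of HOXB2 to HOXB9 or HOXB13 was matched, so the only HOXB window was that of HOXB1, listed at 0 FPKM. HOXC4 and HOXC5 shared a window, which was counted for each. The 250 bases before the start were searched for CG, which reads the same on both strands. The 20 windows held a median of 20.5 CpG, from 4 to 40, against 11 over 35093 promoters, and 85% of them had at least 10 against 52.2% of all. HOXD4 had the fewest of the 20, with 4, while HOXD3 had 21 and HOXD8 28. They are shown here 5′ to 3′ with CpG in capitals, since they belong to genes of the same cluster that passed the limit in opposite directions. No methylation values were used here, and a CpG count says nothing of methylation.
HOXD3 (chr2:176157057-176157306, plus strand): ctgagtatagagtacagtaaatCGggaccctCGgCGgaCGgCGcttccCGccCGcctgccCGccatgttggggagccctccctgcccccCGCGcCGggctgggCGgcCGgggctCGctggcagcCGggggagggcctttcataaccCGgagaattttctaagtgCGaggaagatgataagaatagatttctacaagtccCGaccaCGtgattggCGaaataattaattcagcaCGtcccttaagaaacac
HOXD4 (chr2:176151300-176151549, plus strand): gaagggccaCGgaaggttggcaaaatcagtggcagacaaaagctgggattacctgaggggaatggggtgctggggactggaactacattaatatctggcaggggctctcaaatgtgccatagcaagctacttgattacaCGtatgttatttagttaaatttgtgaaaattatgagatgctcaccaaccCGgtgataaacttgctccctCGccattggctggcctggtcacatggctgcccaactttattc
HOXD8 (chr2:176129455-176129704, plus strand): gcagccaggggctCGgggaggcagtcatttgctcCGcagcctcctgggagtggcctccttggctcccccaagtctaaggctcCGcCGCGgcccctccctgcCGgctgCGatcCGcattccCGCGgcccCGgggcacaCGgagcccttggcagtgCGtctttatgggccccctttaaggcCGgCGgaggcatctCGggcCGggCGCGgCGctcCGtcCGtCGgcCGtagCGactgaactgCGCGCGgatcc

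SKOV3 TET1 against its control gave another set of calls. Of 20 members tested, 6 were higher, 1 was lower and 13 were neither, with a median of 0.18. Among all 13016 genes tested 20.7% were higher and 18.2% lower, against 30% and 5% of the members. The median member lay at 0.38 without centring, since the median of all genes was itself at 0.19 on the log2 scale in this pair.

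HOXB held 4 of the 6 higher members and the lower one. HOXB9 was at 19.5 FPKM without and 55.7 with TET1, a log2 change of 1.28 and a ratio of 2.46 (interval 2.19 to 2.82). HOXB3 was at 27.5 and 55.7, HOXB4 at 14.9 and 29.9, and HOXB5 at 29.5 and 52.5, with log2 changes of 0.80, 0.77 and 0.62. HOXB2, which neighbours HOXB3, was at 108.0 and 68.1, a change of -0.85 and a ratio of 0.543 (interval 0.501 to 0.606). The sum of HOXB was thus near the all-gene median in both pairs, at -0.015 in HeyC2 and 0.14 in SKOV3 on the log2 scale, while single genes of it differed in both directions.

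HOXC had 1 call in SKOV3. HOXC9 was at 2.06 FPKM in the control and 9.53 with TET1, a log2 change of 1.59 and a ratio of 3.99 (interval 2.44 to 7.08). HOXC8, its neighbour, was at 0.07 and 1.91 FPKM, or about 1 and 29 fragments, and was not tested because its mean FPKM fell just under 1. HOXC10, on the other side and also not tested, was at 0.39 and 1.01 with an interval that held no change, HOXC13 at 0.70 and 1.35, and HOXC4 at a listed 0 and 0.50. HOXC6 remained at 0.19 and 0.20, and HOXC11 and HOXC12 were listed at 0 in both. The antisense transcripts of this stretch, named after their values were seen, differed in direction, with HOXC-AS1 at 0.37 and 4.77 FPKM and HOXC-AS3, which overlaps HOXC10, at 2.07 and a listed 0. The summed FPKM of HOXC lay 1.84 above the all-gene median on the log2 scale, and 1.58 without HOXC9. In HeyC2 the same sum lay at -0.53.

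The promoter window that RefSeq gives for HOXC4 is also the window it gives for HOXC5, although the GENCODE canonical transcripts used for the fragment numbers start at separate places and share no exon. HOXC4 and HOXC5 were at 1.80 and 2.15 FPKM in control HeyC2 cells and 1.08 and 1.33 with TET1, and in SKOV3 at 0 and 0.29 and at 0.50 and 0.62, and so kept the same order in each library. The window holds 14 CpG.
HOXC4 and HOXC5 (chr12:54016638-54016887, plus strand): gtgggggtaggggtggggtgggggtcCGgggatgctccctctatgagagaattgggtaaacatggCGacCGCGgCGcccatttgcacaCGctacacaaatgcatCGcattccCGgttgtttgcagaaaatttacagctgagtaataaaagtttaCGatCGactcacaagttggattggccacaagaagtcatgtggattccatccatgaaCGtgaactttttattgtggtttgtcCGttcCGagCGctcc

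HOXA had 1 call in SKOV3. HOXA5, a gene of lung and cervical spine development, was at 2.09 FPKM in the control and 4.95 with TET1, a log2 change of 0.75 and a ratio of 2.04 (interval 1.25 to 3.66). It was at 3.36 and 4.96 in HeyC2, a log2 change of 0.39. HOXA3 was at 3.38 and 2.53 in SKOV3 and HOXA13 at 4.09 and 4.03. HOXA6 stood out among the genes of low level. It was at 0.21 FPKM in the HeyC2 control and 1.64 in HeyC2 TET1, about 1 and 9 fragments, and at 1.34 and a listed 0 in the SKOV3 pair, about 8 and 0 fragments. Its mean was under 1 FPKM in both pairs, so it was not tested, and its antisense partner HOXA-AS3 was at 0.33, 0.67, 0.08 and 0.08 FPKM. The HOXA6 window, shown because the gene crossed 1 FPKM in opposite directions, has 27 CpG.
HOXA6 (chr7:27147775-27148024, minus strand): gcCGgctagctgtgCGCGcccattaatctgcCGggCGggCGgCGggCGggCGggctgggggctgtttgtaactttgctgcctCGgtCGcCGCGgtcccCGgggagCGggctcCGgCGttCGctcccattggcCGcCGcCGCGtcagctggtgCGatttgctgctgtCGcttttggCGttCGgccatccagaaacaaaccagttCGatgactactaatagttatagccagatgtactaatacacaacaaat

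HOXD gave no call in SKOV3. HOXD8 was at 5.90 FPKM in the control and 9.74 with TET1, HOXD9 at 7.07 and 8.67, and HOXD13 at 2.68 and 4.45, with log2 changes of 0.45, 0.069 and 0.37. HOXD4, higher in HeyC2, was at 2.13 in both SKOV3 libraries.

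**Figure D3:**
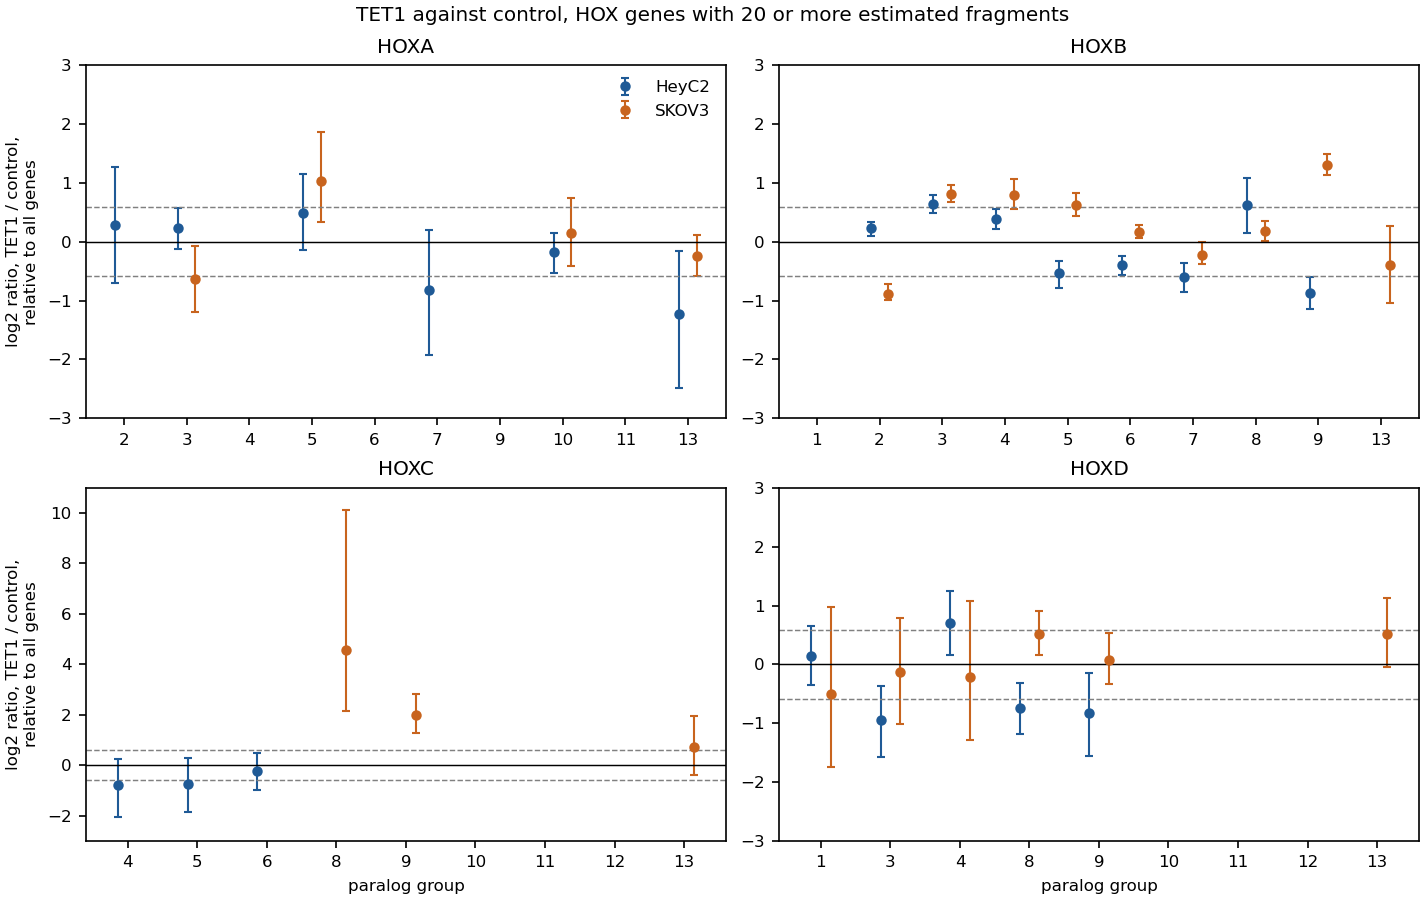
Log2 ratio of TET1 to control FPKM relative to the all-gene median, by cluster and paralog group, in HeyC2 (blue) and SKOV3 (orange). Points are HOX genes with at least 1 estimated fragment in each library of a pair and 20 in both, bars are exact 95% counting intervals, dashed lines mark 1.5-fold, and the HOXC axis reaches further than the others. HOXB3 lies above 0 in both lines, HOXB9 lies below in HeyC2 and above in SKOV3, and HOXC8 and HOXC9 lie highest in SKOV3.

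Of the 15 members tested in both lines, 1 was higher in both, HOXB3, and none was lower in both. Exons of HOXB3 overlap HOXB4 and HOXB6 on its own strand and HOXB-AS1 and HOXB-AS3 on the opposite strand. Among the 11136 genes tested in both lines 3.56% were higher in both and 2.54% lower in both, against 6.67% and none of the members. The sign was the same for 6 members and opposite for 9, a same-sign share of 40% against 55.2% over all genes. HOXB9 was the one that passed the limit in opposite directions, and whether the lines differ could not be tested. HOXB3 and HOXB9 had nearly equal levels in SKOV3 TET1, at 55.7 FPKM each, whereas in HeyC2 TET1 they were at 41.0 and 10.7.

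The kit did not keep strand, and 17 of the 39 genes have exons that overlap a gene on the opposite strand. Reads of such pairs cannot be told apart where they overlap. Among the members called with TET1 in either line, this holds for HOXB2, HOXB3, HOXB5, HOXD3 and HOXD8. It does not hold for HOXA5, HOXB4, HOXB9, HOXC9, HOXD4 and HOXD9. Of 22 noncoding RNAs of the clusters, 7 were tested in HeyC2, with 1 higher and 0 lower, and 9 in SKOV3, with 3 higher and 1 lower. Beside these, 12.5% of all genes tested were higher and 9.19% lower in HeyC2, and 20.7% and 18.2% in SKOV3. HOTAIRM1, an antisense RNA of the HOXA cluster, was higher in both lines, at 3.78 and 9.73 FPKM in HeyC2 and 5.61 and 13.8 in SKOV3, with log2 changes of 1.11 and 0.97. The other RNAs called in SKOV3 were under 1 FPKM in 1 library of the pair and passed the filter through the other. HOXB-AS3 was at 9.40, 10.7, 17.8 and 28.9 FPKM and HAGLR, of the HOXD cluster, at 11.3, 15.7, 1.38 and 1.12. The precursors of miR-10 and miR-196 were listed at 0 throughout, and whether they were absent from the cells was not tested.

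Retinoic acid genes were counted because this ligand induces HOX genes from their anterior end. Of 17 named, 12 were tested in each line. HeyC2 had 5 higher and 2 lower, SKOV3 had 8 and 1, with medians of 0.47 and 1.27. The shares over all genes were, as above, 12.5% and 9.19% in HeyC2 and 20.7% and 18.2% in SKOV3. RARB, CRABP2, CYP26B1 and ALDH1A1 in SKOV3, and CRABP1 in HeyC2, were under 1 FPKM in the control. They passed the filter through the TET1 library alone, which favours a call as higher. Likewise, a lower gene in HeyC2 passed through the control alone. RARB, a receptor, was at 2.72 and 4.86 FPKM in HeyC2 and 0.15 and 3.14 in SKOV3. CYP26B1, which degrades the ligand, was at 3.98 and 7.42 and at 0.19 and 3.32. The binding proteins CRABP1 and CRABP2 had log2 changes of 2.04 and 1.11 in HeyC2 and 1.22 and 2.06 in SKOV3. Of the enzymes that make the ligand, ALDH1A3 was lower in both, from 642.2 to 244.3 FPKM and from 13.5 to 1.62, and ALDH1A1 was at 0.13 and 30.2 in the SKOV3 pair and at 0.06 and 0.07 in HeyC2.

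**Figure D4:**
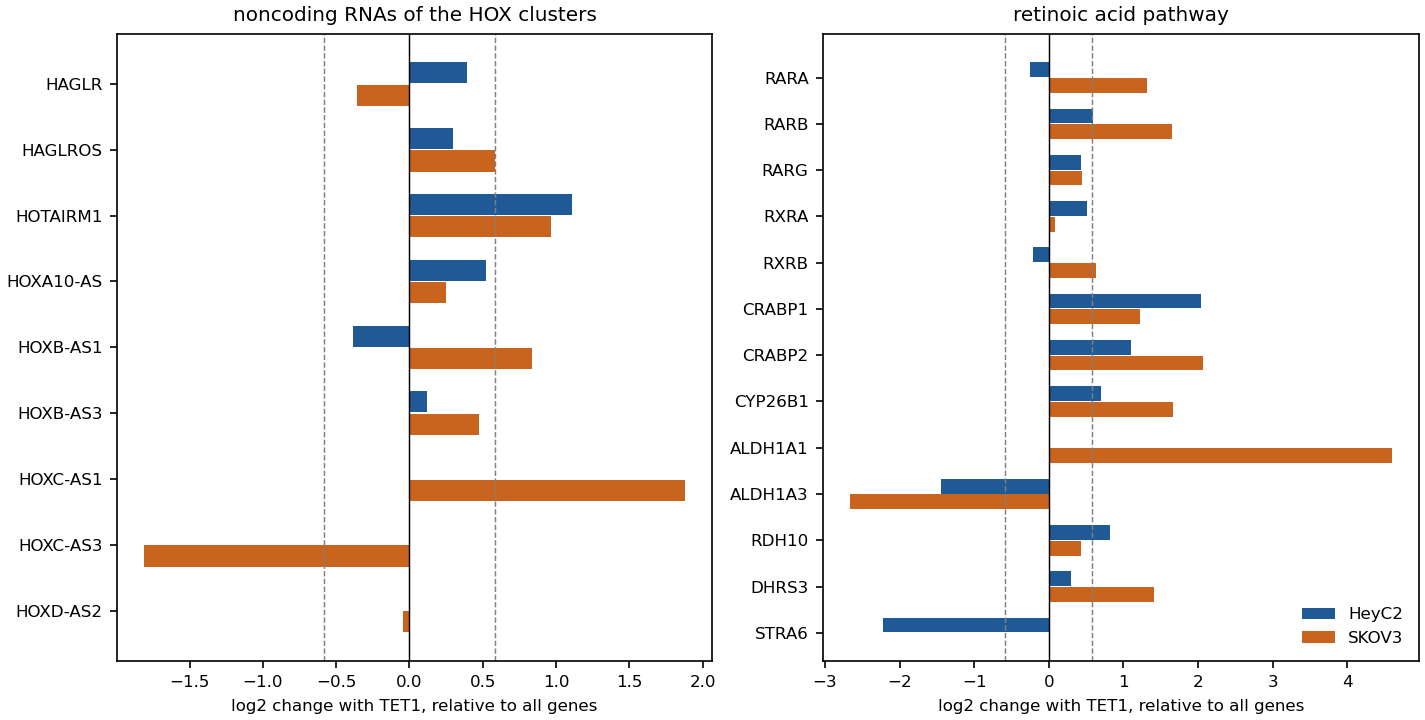
Log2 change with TET1 relative to the all-gene median for noncoding RNAs of the HOX clusters (left) and retinoic acid genes (right), HeyC2 in blue and SKOV3 in orange. A bar is drawn where the mean FPKM of the pair was at least 1, and dashed lines mark 1.5-fold. HOTAIRM1, RARB, CRABP1, CRABP2 and CYP26B1 pass the upper limit in both lines and ALDH1A3 the lower one.

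HOX proteins bind DNA with TALE partners. Of 10 TALE genes and PBX partners found, 6 were tested in HeyC2, with 0 higher and 1 lower, and 8 in SKOV3, with 2 higher and 0 lower. PBX3 was at 10.48 and 4.70 FPKM in HeyC2. In SKOV3 MEIS3 was at 3.45 and 27.5 and PBXIP1, a PBX-binding protein, at 10.01 and 36.0, while PBX2 was between 14.8 and 26.1 in the 4 libraries. Of 17 Trithorax and MLL genes, HeyC2 had no call and SKOV3 had 2 higher and 1 lower. The 19 Polycomb genes had 1 higher and 5 lower call in HeyC2 against 3 and 1 in SKOV3. SUZ12, a core subunit, was at 5.91 and 10.3 FPKM in HeyC2 and PCGF2 at 17.4 and 41.8 in SKOV3. The genes that flank the clusters gave 0 higher and 1 lower of 12 in HeyC2 and 2 higher and 3 lower of 11 in SKOV3. CALCOCO1, near HOXC, was at 9.23 and 27.9 FPKM in SKOV3. The lower ones there included HNRNPA3, at 111.0 and 59.1, and MTX2, at 33.2 and 23.0, both near HOXD. The other homeobox genes listed gave 3 higher and 3 lower of 40 in HeyC2 and 18 higher and 2 lower of 50 in SKOV3. None of the 6 CDX and ParaHox genes reached 1 FPKM. For all these lists, the shares over all genes tested were 12.5% higher and 9.19% lower in HeyC2, and 20.7% and 18.2% in SKOV3.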

How the data were processed

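Per the labels and the study's methods, the libraries were unstranded TruSeq, read as paired ends, aligned to hg19 with Bowtie2 2.2.6 and quantified with RSEM 1.2.17. The authors deposited FPKM per gene, with the TET1 column multiplied so that GAPDH equals the control. That constant was recovered from the 0.01 steps of the values, 100% of which fell on its grid, and undone. From there log2(FPKM + 1) differences were taken (numpy 2.4.6, pandas 2.3.3), since a pseudocount on scaled values shifts low genes against high ones. Genes that averaged 1 FPKM or more in a pair were kept, and a call needed 1.5-fold from the all-gene median. A fold on this scale understates changes of low genes. Depth, estimated from the steps of low FPKM, was 6720000 to 7360000 fragments. Fragment numbers and intervals rest on GENCODE transcript lengths, which may differ from those used by the authors. All 39 HOX genes are counted, 1 of them is not reported here, and from other lists at most 6 genes by highest FPKM or those called in both lines. Antisense RNAs and other genes without a homeobox were dropped from the homeobox list after it was drawn up. Members and lists were chosen with earlier results of these data known. The calculations were tested on data with planted changes larger than the 1.5-fold limit, in genes of higher FPKM than most HOX genes. They were not tested at that limit or at low levels.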

Additional observations from a re-analysis of the deposited data

Results flagged for a closer look

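HOXB9 passed the limit in opposite directions in the lines, with a log2 change relative to all genes of -0.81 in HeyC2 and 1.28 in SKOV3. With 1 library per condition, the difference between the lines was not tested.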

How the results depend on the processing

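No replicate was left out, as each condition had 1 library. No paired analysis was possible because the labels give no replicate numbers. Levels under about 1 FPKM rest on fewer than 30 fragments for the HOX genes, so that values there carry wide counting intervals. No called member changed sign under any of the alternatives run, but low members moved far with the pseudocount, as HOXC6 between the controls, at -2.18 with 1 and -4.43 with 0.01.

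In HeyC2, against 2 higher and 4 lower members, the lower count was 8 with a pseudocount of 0.1 or 0.01, 9 with TPM, 7 with FPKM as deposited, 2 with no centring and 2 at a mean FPKM of at least 5. That filter left 13 members, with a median of 0.13. At a 2-fold limit 0 were higher and 0 lower. In SKOV3, against 6 higher and 1 lower, the lower count was 2 with either smaller pseudocount and with no filter, which tested 34 members, and 3 with TPM. At a 2-fold limit 2 were higher and 0 lower. The median was 0.54 over the 11 members with a mean FPKM of at least 5, 0.36 relative to the upper quartile and 0.38 with no centring. Between the controls, no filter tested 35 members, a mean FPKM of at least 5 left 11, with 1 higher, 2 lower and a median of -0.14, and no centring gave 8 higher and a median of -0.082. The median was -0.21 relative to the upper quartile and -0.51 with TPM. At a minimum of 5 FPKM, the HeyC2 libraries had 12 HOX genes each and the SKOV3 libraries 10 and 11. Requiring the counting interval to exclude the all-gene median as well left each count of calls as it was. The shares over all genes were not computed under these alternatives, so the counts here have no background at the same setting.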
